A study of Arabidopsis thaliana with 30 samples.

Results

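The triple overexpressor oePsbSoeβCA1βCA2 was compared with the wild type Col-0 in Arabidopsis thaliana rosettes that had received water only. The members are the 6 libraries of these 2 groups, 3 of the triple line and 3 of Col-0, out of 30 libraries in the series, and they were chosen by their genotype and treatment labels. Plants of the triple line came from the PsbS overexpressor oePsbS, transformed with 1 construct that carried the coding sequences of both βCA1 and βCA2 under the ROLD and 35S promoters. The promoter that drives PsbS in oePsbS is not given in the sources used here. Col-0 carries none of these transgenes. Both groups grew at 16 h light and 8 h dark, under 120 µmol m−2 s−1, received 10 ml of water every 2 d from the age of 2 weeks, and were harvested as 4-week-old rosettes. The study worked with 3 independent lines of the triple construct that had the highest expression of the added genes. The study's methods give 3 biological samples and 3 technical repeats for the transcriptome, without saying which of these the 3 libraries of each group are, or whether they stem from different lines, plants or pools, so p-values measure only the spread between these samples, which may be technical. The rest of the series holds oePsbS, the double line oePsbSoeβCA1 and the PsbS-less mutant npq4-1, and all genotypes with 3 mM bicarbonate. The comparison asks how the RNA of rosettes that carry transgenes for the 3 proteins together differs from wild-type RNA with water alone.

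PsbS is a thylakoid protein of photosystem II that senses acidification of the lumen and switches on the fast, energy-dependent part of non-photochemical quenching, the harmless loss of excess absorbed light as heat. Carbonic anhydrases interconvert CO2 and bicarbonate. βCA1 is abundant in the chloroplast stroma and βCA2 is best known from the cytosol of leaf cells, and both have been studied in CO2 signalling of guard cells and in the supply of inorganic carbon.

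The transcript models of the βCA genes differ at 1 end of their coding sequence, and these ends are shown because reads were assigned unequally to them in the triple line. βCA1 (CA1, AT3G01500) lies on the minus strand of chromosome 3 and βCA2 (CA2, AT5G14740) on the plus strand of chromosome 5. Positions and sequences are from the RefSeq annotation of TAIR10.1 and each stretch below is spliced coding sequence, read 5′ to 3′. The model βCA1.2 has 1044 coding bases and βCA1.3 has 1011, of which 1005 are shared. Their last coding bases follow, for βCA1.2 from chr3:194853-195214 and for βCA1.3 from chr3:195173-195214, with capitals for bases that code in that model only.
βCA1.2: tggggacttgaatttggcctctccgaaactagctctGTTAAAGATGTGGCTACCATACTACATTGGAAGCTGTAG
βCA1.3: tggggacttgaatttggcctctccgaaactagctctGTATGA
The model βCA2.1 has 996 coding bases and βCA2.9 has 780, because βCA2.9 starts 72 codons further in. Their first coding bases follow, for βCA2.1 from chr5:4758257-4759128, with capitals for the 87 bases that lie in no exon of βCA2.9, and for βCA2.9 from chr5:4760536-4760730, with capitals for the start codon.
βCA2.1: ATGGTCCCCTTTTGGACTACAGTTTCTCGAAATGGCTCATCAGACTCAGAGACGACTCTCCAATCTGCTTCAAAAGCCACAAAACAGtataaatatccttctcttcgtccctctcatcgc
βCA2.9: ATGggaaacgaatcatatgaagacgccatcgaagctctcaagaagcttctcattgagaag
By the insert lengths in the study's methods, the constructs carried the coding sequences of βCA1.2 and βCA2.1.

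The 6 libraries held 15605433 to 17995764 estimated reads in the triple line and 15610241 to 17120125 in Col-0. Chloroplast and mitochondrial genes took 0.338% of the reads in replicate 3 of the triple line and 0.0484% to 0.103% in the other 5 libraries. The summed level of 6 leaf mesophyll markers was 61040 to 62690 CPM (reads scaled to a common library total) in the triple line and 57980 to 64460 in Col-0, and the ranges overlap. Guard cell and stomatal lineage markers summed to 1594 to 1996 CPM in the triple line and 1532 to 1919 in Col-0. Floral markers summed to 5.30 to 6.63 CPM in the triple line and 4.39 to 15.1 in Col-0. Root markers summed to 38.9 to 43.8 CPM in the triple line and 34.2 to 40.3 in Col-0, and 6 of these 10 markers had no read in each of the 2 groups. These are bulk samples, in which fewer cells of a type and less RNA per cell cannot be told apart.

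PsbS transcript rose in the triple line. PsbS (NPQ4, AT1G44575, chr1:16870221-16873427) stood at 4997, 5592 and 5510 CPM in the 3 triple libraries, against 1740, 1513 and 1604 CPM in Col-0. Every triple library lay far above every Col-0 library. The means were 5366 ± 323 CPM in the triple line and 1619 ± 114 CPM in Col-0 (SD, n = 3 each), a fold of 3.31 with a 95% interval of 2.91 to 3.76 (log2 fold change 1.73, standard error 0.08, adjusted p = 1.57e-05 by the quasi-likelihood F test of edgeR). The transgenic and the native copy of PsbS share coding bases, so their reads cannot be told apart at the level of the gene. These are RNA levels. By immunoblot, the study found PsbS protein in the double and triple lines well below that of oePsbS and close to that of Col-0. The study also measured PsbS transcript by quantitative PCR in these genotypes, and its text gives no values. In Col-0 plants with only the βCA constructs, it reported both PsbS transcript and protein below Col-0. It proposes a link between βCAs and PsbS that runs at least partly through PsbS expression.

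The added carbonic anhydrases were higher in every triple library than in any Col-0 library, yet by less than 2-fold, and neither passed the test across all genes. βCA1 stood at 3611, 4071 and 3815 CPM in the triple line, against 3059, 2900 and 3051 CPM in Col-0. The fold was 1.27, with a 95% interval of 1.14 to 1.43 (log2 fold change 0.35, standard error 0.07, adjusted p = 0.365 by edgeR). βCA2 stood at 1604, 1883 and 1787 CPM in the triple line, against 1265, 1184 and 1192 CPM in Col-0. Its fold was 1.45, with a 95% interval of 1.28 to 1.64 (log2 fold change 0.53, standard error 0.08, adjusted p = 0.116 by edgeR). Both genes are among the more abundant transcripts of Col-0 rosettes, so the counts behind these folds are large. These counts sum the reads of the native and the added copy of each gene. The study also measured both transcripts by quantitative PCR and both proteins by immunoblot in these genotypes, and its text gives no values. DESeq2 on the same 6 libraries gave an adjusted p of 0.00684 for βCA1 and 1.12e-06 for βCA2, and edgeR without replicate 1 of the triple line gave 0.0323 for βCA2.

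**Figure D1:**
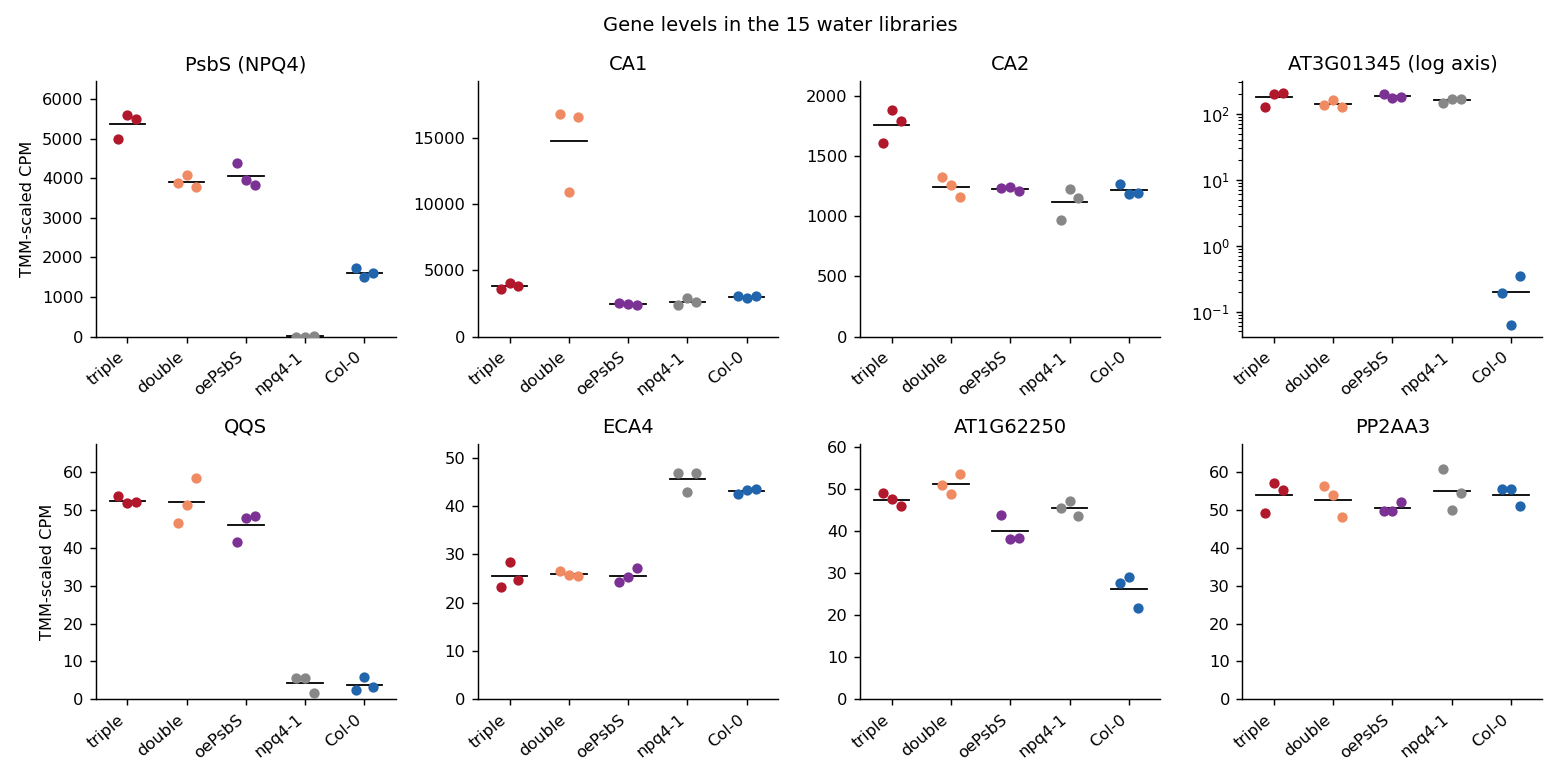
Level of 8 genes in each of the 15 water libraries, as CPM scaled by TMM, 1 point per library and a line at the mean of each genotype. Axes start at 0 except that of AT3G01345, which is logarithmic. The 3 triple libraries lie above the 3 Col-0 libraries for PsbS, CA1, CA2, AT3G01345, QQS and AT1G62250 and below them for ECA4, while the reference gene PP2AA3 overlaps.

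At the level of transcript models the added βCA2 was distinct. βCA2.1 stood at 534.8, 545.5 and 492.7 TPM in the triple line, where 8925, 10250 and 9083 reads were assigned to it, and was listed at 0 in all 3 Col-0 libraries. It was also listed at 0 in every library of npq4-1, oePsbS and the double line, and stood at 452.4 to 548.6 TPM in the triple line with bicarbonate. The model that the other genotypes used, βCA2.9, stood at 1017, 1298 and 1221 TPM in the triple line, against 1324, 1205 and 1280 TPM in Col-0, and these ranges overlap (exact permutation test of the mean, two-sided, p = 0.5). βCA2.1 took 32.4% of the reads of the gene in the triple line, and βCA2.9 took 64.9% in the triple line and 97.9% in Col-0. With 3 libraries against 3 the exact permutation test cannot go below p = 0.1, which is the value for βCA2.1.

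The reads of βCA1 and PsbS were also spread unequally over their models. βCA1.2 stood at 447.4, 653.8 and 576.7 TPM in the triple line, against 148.0, 227.2 and 252.2 TPM in Col-0, without overlap (exact permutation test, p = 0.1). βCA1.3, the main model, stood at 1811, 1952 and 1807 TPM in the triple line, against 1716, 1653 and 1804 TPM in Col-0 (exact permutation test, p = 0.1), with the highest Col-0 library just below the lowest triple library. βCA1.2 took 19.3% of the reads of its gene in the triple line and 8.94% in Col-0. For PsbS, the models PsbS.1 and PsbS.3 have the same 798 coding bases and differ ahead of them, where PsbS.3 has 108 bases that lie in no exon of PsbS.1. PsbS.1 stood at 4818, 5470 and 5344 TPM in the triple line, against 1951, 1667 and 1850 TPM in Col-0. PsbS.3 stood at 596.6, 599.2 and 507.4 TPM in the triple line and was listed at 0 in all 3 Col-0 libraries (exact permutation test, p = 0.1), as in npq4-1. It stood at 470.9 to 555.3 TPM in oePsbS and 164.5 to 306.3 TPM in the double line. A transcript that carries a coding sequence alone has no model of its own in the reference, so which model its reads fall to depends on the assignment.

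**Figure D2:**
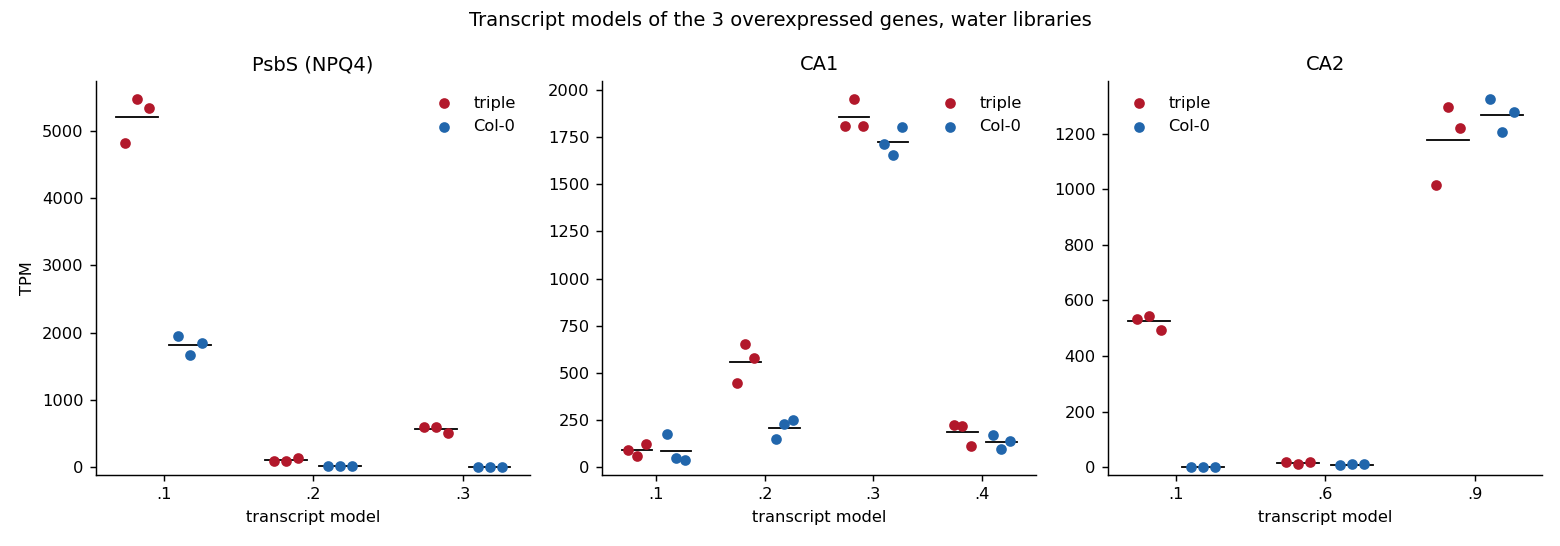
TPM of the transcript models of PsbS, CA1 and CA2 in the 3 triple and 3 Col-0 water libraries, 1 point per library and a line at the mean. For CA2 the 3 models with the highest levels are drawn. PsbS.3 and CA2.1 lie at 0 in Col-0, at 507.4 to 599.2 and 492.7 to 545.5 TPM in the triple line.

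Few genes passed the test. Of 18131 genes tested, 5 had an adjusted p under 0.05 (0.0276%), 4 of them higher (0.0221%) and 1 lower (0.00552%). A gene was called where its fold change also exceeded 2, that is a log2 fold change above 1 or below −1, and 3 genes were called higher in the triple line (0.0165%): PsbS, AT3G01345 and QQS. None was called lower by edgeR (0.0%). With this fold and an unadjusted p below 0.05, 32 genes were higher (0.176%) and 80 were lower (0.441%). DESeq2 called 3 genes higher (0.0165%) and 11 lower (0.0607%), and 5 of these 11 are described below. Most genes stood close to their Col-0 level, with 94.4% within 0.5 of 0 on the log2 scale and a median over all genes of −0.0023. All 3 libraries of the triple line lay above all 3 of Col-0 for 1165 genes (6.43%) and below them for 1159 (6.39%).

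**Figure D3:**
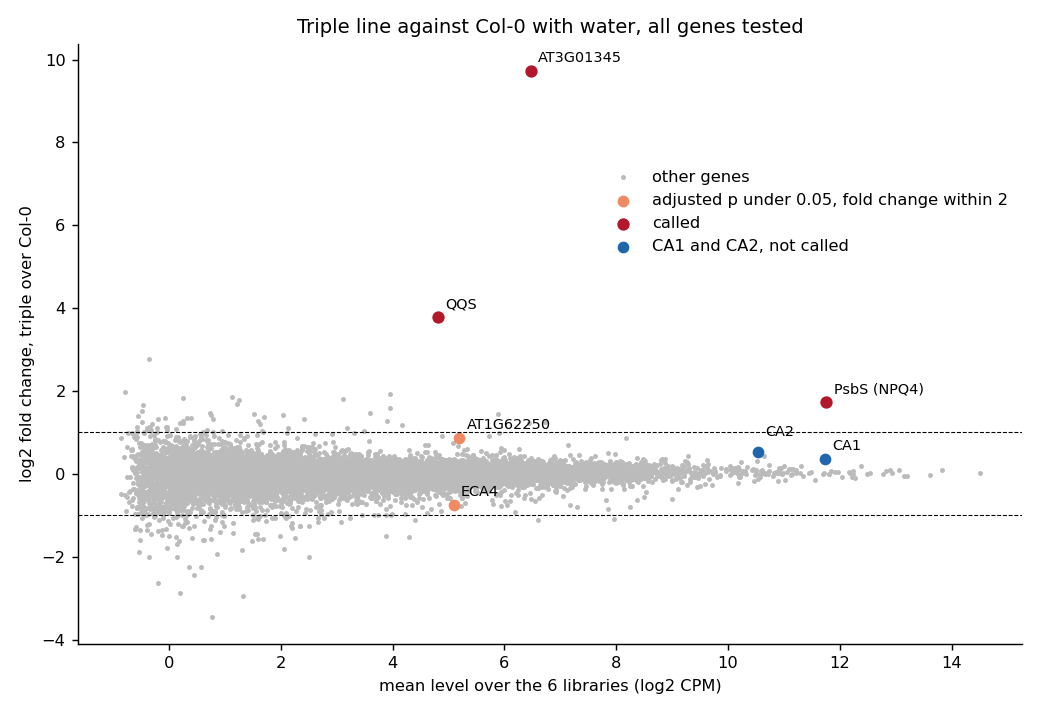
Log2 fold change of each of the 18131 genes tested, triple line over Col-0 with water, against its mean level over the 6 libraries in log2 CPM. Dashed lines mark a fold change of 2 in each direction. AT3G01345, QQS and PsbS stand apart above the upper line, and CA1 and CA2 lie below it among the abundant genes.

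AT3G01345 differed the most. It is a single-exon gene at chr3:129138-130749 that the annotation describes only as an uncharacterized protein, and its coding sequence opens as printed here, with the start codon in capitals, from chr3:129319-129408.
AT3G01345: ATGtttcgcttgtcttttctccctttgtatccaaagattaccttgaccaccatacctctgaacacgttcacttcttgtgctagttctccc
It stood at 128.3, 196.9 and 209.1 CPM in the triple line, against 0.192, 0.0628 and 0.343 CPM in Col-0, where 3, 1 and 6 reads were assigned to it. Col-0 was close to the limit of detection in every library. The 8951 reads of the triple libraries against 10 in Col-0, relative to the library totals, give a ratio of 862 with an exact Clopper-Pearson 95% interval of 469 to 1798, which covers counting error only (adjusted p = 8.5e-07 by edgeR). The neighbouring genes had overlapping levels. AT3G01340, which lies 143 bases away, stood at 50.3 to 59.4 CPM in the triple line and 52.9 to 60.9 in Col-0, and AT3G01350, 4175 bases away, stood at 1.42 to 2.17 CPM in the triple line and 1.95 to 2.18 in Col-0. βCA1 lies 63676 bases from AT3G01345. The level was not particular to the triple line. It was 127.1 to 159.2 CPM in the double line, 173.7 to 196.6 in oePsbS and 144.4 to 170.1 in npq4-1 with water, and of the 5 genotypes the low one was Col-0.

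QQS (AT3G30720, chr3:12349047-12349933) rose as well. QQS is an orphan gene of Arabidopsis that encodes a very small protein known to shift the allocation of carbon and nitrogen between starch and protein. Its whole coding sequence has 180 bases, given here from chr3:12349461-12349726 with the start and stop codon in capitals.
QQS: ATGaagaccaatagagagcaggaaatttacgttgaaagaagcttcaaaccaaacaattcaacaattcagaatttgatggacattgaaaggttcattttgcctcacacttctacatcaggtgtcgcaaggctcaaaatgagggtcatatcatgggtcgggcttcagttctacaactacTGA
It stood at 53.6, 51.8 and 52.1 CPM in the triple line, against 2.37, 5.84 and 3.25 CPM in Col-0. The triple libraries were nearly equal and the Col-0 libraries varied more in proportion. The fold was 13.7, with a 95% interval of 9.79 to 19.2 (log2 fold change 3.78, standard error 0.22, adjusted p = 5.66e-05 by edgeR). Levels with water were 46.5 to 58.5 CPM in the double line, 41.4 to 48.4 in oePsbS and 1.70 to 5.64 in npq4-1. The 3 overexpressing genotypes were thus high and both npq4-1 and Col-0 low.

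ECA4 and AT1G62250 passed the test across all genes with a fold change under 2. ECA4 (AT1G07670, chr1:2370020-2374607) encodes a calcium pump of the endomembranes. It fell to 23.2, 28.4 and 24.8 CPM in the triple line, against 42.5, 43.2 and 43.5 CPM in Col-0, with no overlap (log2 fold change −0.76, standard error 0.09, adjusted p = 0.0338 by edgeR). Its close paralog ECA1, 41570 bases away and similar enough for reads to be shared, stood at 35.7, 37.8 and 43.0 CPM in the triple line, against 37.9, 39.9 and 38.2 CPM in Col-0, with overlap. ECA4 stood at 25.6 to 26.5 CPM in the double line and 24.4 to 27.1 in oePsbS, against 42.8 to 46.9 in npq4-1. AT1G62250 (chr1:22994538-22997709), annotated as an orotidine 5′-phosphate decarboxylase, stood at 48.9, 47.5 and 45.8 CPM in the triple line, against 27.5, 29.1 and 21.6 CPM in Col-0 (log2 fold change 0.86, standard error 0.11, adjusted p = 0.0476 by edgeR). It stood at 48.7 to 53.5 CPM in the double line, 38.0 to 43.8 in oePsbS and 43.5 to 47.1 in npq4-1, above the Col-0 range in each. Both results lie near the threshold, and with the replicate number as a block neither passed, at adjusted p of 0.0831 for ECA4 and 0.0613 for AT1G62250. DESeq2 gave an adjusted p of 9.53e-07 for ECA4 and 7.81e-08 for AT1G62250. Of 17 fits, ECA4 passed in 10 and AT1G62250 in 9. Left-out libraries move ECA4 to an adjusted p of 0.107 to 0.200 without a Col-0 library and 0.261 without replicate 3 of the triple line, and AT1G62250 to 0.0565 to 0.152 without a Col-0 library and to 0.267 and 0.201 without replicates 2 and 3 of the triple line.

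The remaining genes that the naming rule took with higher values were not called. The rule filled each direction to 15 genes with those of smallest unadjusted p whose libraries do not overlap, so the absence of overlap below is a property of the choice. No theme is read from them. PATL2, a patellin that binds membrane lipids, stood at 44.0, 51.0 and 45.9 CPM in the triple line, against 31.5, 31.9 and 30.1 CPM in Col-0 (adjusted p = 0.0906, log2 fold change 0.59). KCS8, an enzyme of the elongation of very long chain fatty acids, stood at 63.1, 61.4 and 56.7 CPM in the triple line, against 42.1, 38.3 and 46.5 CPM in Col-0 (log2 fold change 0.51). OEP6, a protein of the outer envelope of the chloroplast, stood at 292, 259 and 272 CPM in the triple line, against 194, 207 and 179 CPM in Col-0 (adjusted p = 0.14, log2 fold change 0.50). NDPK2, a nucleoside diphosphate kinase of the chloroplast, had a log2 fold change of 0.45, with 168 to 197 CPM in the triple line and 132 to 141 in Col-0. GLYR2, a glyoxylate reductase, had one of 0.36, with 50.3 to 54.0 CPM in the triple line and 39.2 to 40.9 in Col-0. EXL3, of the EXORDIUM family linked to growth under low carbon supply, stood at 63.5, 75.8 and 83.4 CPM in the triple line, against 43.5, 52.7 and 48.8 CPM in Col-0 (log2 fold change 0.62). The uncharacterized gene AT2G30930 had a log2 fold change of 0.45, with 43.4 to 47.5 CPM in the triple line and 32.9 to 33.9 in Col-0. AT5G44020, AT4G13577 and PLAT2 had log2 fold changes of 0.49, 0.46 and 0.40. Of the 15 genes, 4 had an adjusted p under 0.05 by edgeR and 13 by DESeq2, and without replicate 1 of the triple line 9 did by edgeR, PATL2, EXL3, NDPK2, AT5G44020 and βCA2 being added. Over all genes tested, 5, 56 and 23 passed in these fits, in that order. The 15 genes had been chosen by p in the same libraries, so nothing is read from these counts.

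None of the 15 genes that the rule took with lower values was called by edgeR, and 14 of them, ECA4 aside, also had an adjusted p above 0.05. ORE1 (NAC6), a NAC transcription factor that promotes leaf senescence, stood at 4.53, 3.08 and 4.04 CPM in the triple line, against 7.93, 9.41 and 8.79 CPM in Col-0 (log2 fold change −1.17, standard error 0.18, adjusted p = 0.116 by edgeR). NAP, another NAC factor of the same process, stood at 20.83, 14 and 15.8 CPM in the triple line, against 29.6, 37.8 and 30.3 CPM in Col-0 (log2 fold change −0.95). SAG21, a senescence-associated gene of the late embryogenesis abundant family, stood at 12.0, 9.20 and 10.3 CPM in the triple line, against 22.6, 15.5 and 24.4 CPM in Col-0 (log2 fold change −0.997). None of these 3 genes passed in the edgeR test of the 6 libraries, while DESeq2 gave an adjusted p of 0.000546 for ORE1, 8.66e-06 for NAP and 0.000171 for SAG21. By edgeR, NAP passed without replicate 1 of the triple line (adjusted p = 0.0243) and SAG21 without replicate 2 of Col-0 (adjusted p = 0.0463). The genes of this and the next 2 paragraphs were taken one by one by the rule, so no theme is read from them.

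ST2A, a sulfotransferase that inactivates hydroxylated jasmonates, stood at 11.5, 6.11 and 12.53 CPM in the triple line, against 21.2, 29.9 and 35.9 CPM in Col-0 (adjusted p = 0.14, log2 fold change −1.54). NIG1, a basic helix-loop-helix factor annotated as calcium-binding, stood at 1.68, 1.66 and 1.37 CPM in the triple line, against 5.44, 3.64 and 4.85 CPM in Col-0 (log2 fold change −1.57). FLS2 (AT5G46330), the receptor of bacterial flagellin, stood at 31.2, 28.4 and 32.2 CPM in the triple line, against 46.7, 42.3 and 41.8 CPM in Col-0 (log2 fold change −0.51). The MATE transporter gene AT3G23550 had the largest value of the group, a log2 fold change of −1.93, at only 0.571 to 0.841 CPM in the triple line and 2.11 to 3.60 in Col-0. LTP4, a lipid transfer protein, stood at 60.2, 43.4 and 48.9 CPM in the triple line, against 107, 91.4 and 87.3 CPM in Col-0 (adjusted p = 0.0878, log2 fold change −0.91). LTP4 passed by edgeR with the replicate number as a block (adjusted p = 0.0216) and without replicate 1 of the triple line (adjusted p = 0.0185).

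HFR1, a factor that restrains shade responses, stood at 2.52, 2.40 and 2.97 CPM in the triple line, against 5.69, 5.40 and 7.65 CPM in Col-0 (log2 fold change −1.25). ATHB2 (HB-2), a homeobox gene that shade induces, stood at 17.3 to 19.5 CPM in the triple line and 24.7 to 26.6 in Col-0 (log2 fold change −0.49). SPL4, of the age-dependent control of flowering, stood at 3.83 to 4.40 CPM in the triple line and 6.28 to 8.10 in Col-0 (log2 fold change −0.87). The protein phosphatase 2C gene AT3G16800 had a log2 fold change of −0.59 and the aspartyl protease gene AT1G62290 one of −0.99. AT3G45210, at 25.7 to 26.3 CPM in the triple line and 33.3 to 34.4 in Col-0, had one of −0.38. DESeq2 called ORE1, ST2A, NIG1, HFR1 and AT3G23550 lower, with the highest adjusted p of the 5 at 0.00809, whereas edgeR called none of them.

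**Figure D4:**
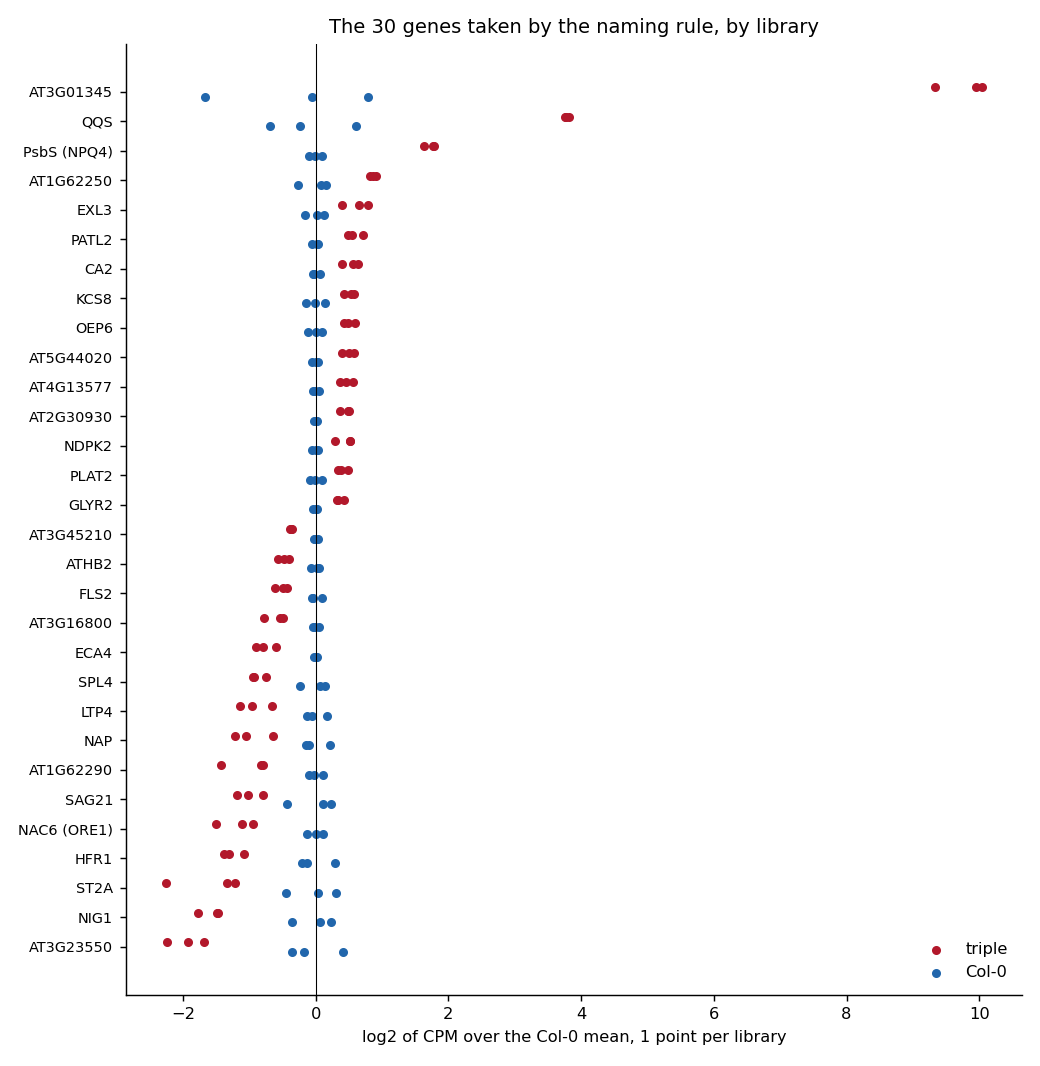
Level of the 30 genes taken by the naming rule in each of the 6 libraries, as log2 of CPM over the Col-0 mean, 1 point per library, triple line and Col-0 in separate colours. The points of the 2 groups do not overlap, as the rule required for genes that were not called, and AT3G01345 and QQS lie far to the right of the others.

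No carbonic anhydrase was called. Of 19 carbonic anhydrase genes 13 were tested, with log2 fold changes from −0.14 to 0.53 and a median of 0.11, beside −0.0023 over all genes, and at an unadjusted p under 0.05 there were 2 higher, the overexpressed βCA1 and βCA2 themselves, and 0 lower, beside 7.46% of all genes in either direction. The highest value was that of βCA2, followed by βCA3 and βCA1. βCA4 (CA4), a plasma membrane form that acts with βCA1 in CO2 signalling, stood at 144, 161 and 148 CPM in the triple line, against 152, 155 and 159 CPM in Col-0 (adjusted p = 0.921, log2 fold change −0.05). βCA3 (CA3) stood at only 2.07, 1.66 and 1.96 CPM in the triple line, against 2.24, 0.816 and 1.085 CPM in Col-0 (log2 fold change 0.46, standard error 0.38, adjusted p = 0.824), and its libraries overlap. The 3 mitochondrial γ carbonic anhydrases and their 2 relatives lay between 0.09 and 0.16. The reference gene PP2AA3 stood at 49.2, 57.0 and 55.2 CPM in the triple line, against 55.6, 55.4 and 51.1 CPM in Col-0 (adjusted p = 0.988, log2 fold change −0.01).

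Across 28 lists of 442 genes, 386 genes were tested and 2 passed, PsbS in photoprotection and QQS in carbon and nitrogen allocation. The other 26 lists held no called gene. Counts at an unadjusted p under 0.05 are to be set against that 7.46% of all genes, and the example from a list is the member of smallest p in its list, chosen after its value was seen. The photosynthesis lists had medians close to 0. The 21 genes of the light-harvesting antenna had a median log2 fold change of 0.02, from −0.14 to 0.19, with none under 0.05. The 28 Calvin cycle and photorespiration genes had a median of 0.06, with 3 higher and 0 lower under 0.05. Among them RBCS1B, a small subunit of Rubisco with near-identical copies that can share reads, stood at 1487, 2151 and 1935 CPM in the triple line, against 1480, 1239 and 1420 CPM in Col-0 (adjusted p = 0.546, log2 fold change 0.43). In the 17 photoprotection genes the median was 0.03, with 2 higher and 1 lower under 0.05. Besides PsbS, the lipocalin gene CHL (AT3G47860), whose product protects thylakoid lipids and takes part in sustained quenching, stood at 31.2, 27.5 and 29.3 CPM in the triple line, against 19.4, 25.1 and 22.7 CPM in Col-0 (adjusted p = 0.518, log2 fold change 0.39).

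No stress or hormone list held a called gene, and their medians lay on both sides of 0. Touch and calcium sensors had a median of 0.13, the core low-oxygen response 0.08, the cold and CBF response −0.02, heat shock −0.15 and iron homeostasis −0.26. The 16 ERF and C2H2 zinc finger factors had a median of −0.45, with 0 higher and 5 lower under 0.05. ERF4, an ethylene-responsive repressor, stood at 18.6, 14.1 and 17.3 CPM in the triple line, against 26.03, 23.7 and 23.2 CPM in Col-0 (adjusted p = 0.365, log2 fold change −0.55). The 21 jasmonate genes had a median of −0.32, with 0 higher and 4 lower under 0.05, and JAZ6, a repressor of jasmonate responses, had a log2 fold change of −0.51. The 16 salicylate genes had a median of −0.30, with 1 higher and 4 lower, and NIMIN1, which binds the salicylate regulator NPR1, stood at 1.55, 0.80 and 1.13 CPM in the triple line, against 4.99, 1.82 and 2.51 CPM in Col-0 (log2 fold change −1.42, standard error 0.42). The 15 abscisic acid genes had a median of −0.28, with 1 higher and 7 lower, and HAI2, a protein phosphatase 2C of abscisic acid signalling, had a log2 fold change of −0.87. The 18 genes of pattern-triggered immunity had a median of −0.13, with 0 higher and 4 lower.

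The 23 phenylpropanoid and anthocyanin genes had a median of 0.18, with 0 higher and 0 lower under 0.05. The 17 genes of folding in the endoplasmic reticulum had a median of 0.20, with 6 higher and 0 lower under 0.05. CNX1, the chaperone calnexin, stood at 148.7, 181.8 and 173.7 CPM in the triple line, against 135.9, 123.3 and 135.6 CPM in Col-0 (adjusted p = 0.504, log2 fold change 0.35). The 13 genes of reactive oxygen scavenging had a median of 0.14, with 5 higher and 0 lower, and FSD2, an iron superoxide dismutase of the chloroplast, stood at 23.61, 23.5 and 21.7 CPM in the triple line, against 18.4, 15.3 and 18.3 CPM in Col-0 (adjusted p = 0.504, log2 fold change 0.40). The 20 genes of carbon and nitrogen allocation, QQS included, had a median of 0.02, with 3 higher and 2 lower under 0.05, and TPS9, a trehalose phosphate synthase, had a log2 fold change of −0.58 (adjusted p = 0.365).

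**Figure D5:**
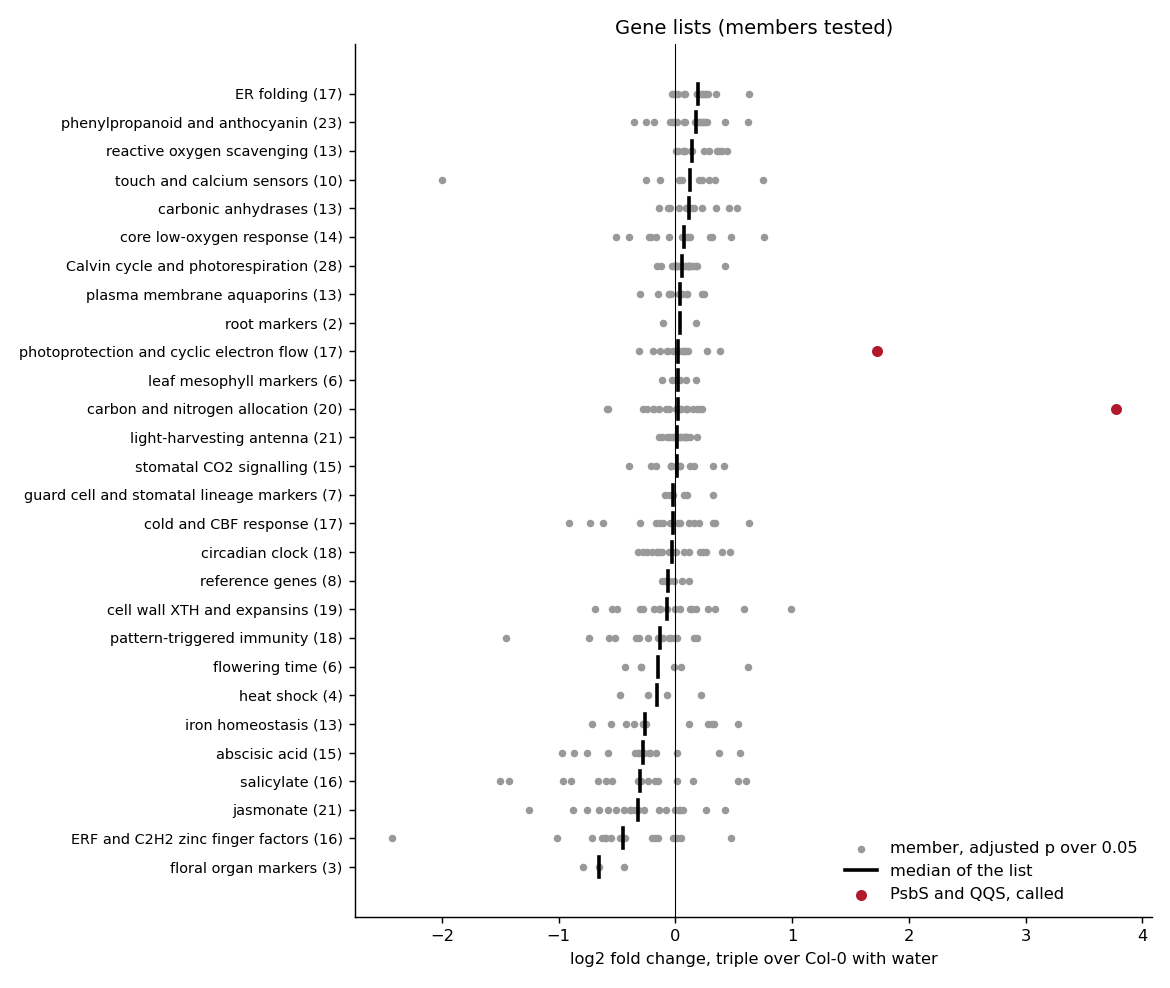
Log2 fold change, triple line over Col-0 with water, of every tested member of the 28 lists, 1 point per gene, a black bar at the median of each list and the number tested in brackets. The list medians run from −0.66 for 3 floral markers to 0.20 for folding in the endoplasmic reticulum, and only PsbS and QQS are called.

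The triple line was also set against oePsbS, the line that was transformed to make it, to see which differences from Col-0 were already present before the carbonic anhydrases were added. These contrasts share the triple libraries with the one above, so each is given by its own values. Against oePsbS, 11.4% of 18144 genes had an adjusted p under 0.05. βCA1 stood at 3611 to 4071 CPM in the triple line and 2418 to 2564 in oePsbS (log2 fold change 0.64, 95% interval 0.49 to 0.78, adjusted p = 0.000624 by edgeR). βCA2 stood at 1604 to 1883 CPM in the triple line and 1207 to 1239 in oePsbS (log2 fold change 0.52, 95% interval 0.37 to 0.68, adjusted p = 0.00215). Both carbonic anhydrases therefore passed the test against the parent line. PsbS stood at 4997 to 5592 CPM in the triple line and 3830 to 4382 in oePsbS (log2 fold change 0.41, adjusted p = 0.00676). In a fit of all 30 libraries PsbS and βCA1 no longer passed, at adjusted p of 0.327 and 0.19, and without replicate 2 of oePsbS the adjusted p of PsbS was 0.0568. The log2 fold changes in the fit of all 30 libraries were 0.40 for PsbS and 0.63 for βCA1. The standard errors there were 0.259 and 0.315, against 0.072 and 0.064 in the fit of the triple line and oePsbS alone.

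The other genes that passed against Col-0 did not pass against oePsbS. The log2 fold change of the triple line over oePsbS was −0.04 for AT3G01345 (95% interval −0.37 to 0.30, adjusted p = 0.914), 0.20 for QQS (0.02 to 0.37, adjusted p = 0.148), −0.003 for ECA4 (−0.21 to 0.21, adjusted p = 0.991) and 0.25 for AT1G62250 (0.07 to 0.43, adjusted p = 0.0805, and 0.0252 without replicate 1 of oePsbS). These intervals lie well inside the differences from Col-0 for AT3G01345, QQS and ECA4. Of the 15 genes named for lower values, 10 had an adjusted p under 0.05 against oePsbS, all lower in the triple line, where 5.15% of all genes were lower at this threshold and 6.24% higher. The genes had been chosen for low or high values in the same triple libraries, which favours the same direction here, so nothing is read from these counts against those shares. Among them ORE1 stood at 3.08 to 4.53 CPM in the triple line and 9.03 to 9.53 in oePsbS, and HFR1 at 2.40 to 2.97 CPM in the triple line and 8.63 to 15.5 in oePsbS. Of the 15 named for higher values, 6 passed as higher and 2 as lower, and the lower ones were PATL2, at 44.0 to 51.0 CPM in the triple line and 81.4 to 85.9 in oePsbS, and KCS8, at 56.7 to 63.1 CPM in the triple line and 74.8 to 84.9 in oePsbS.

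Against the double line, which carries βCA1 alone on the oePsbS background, 3 of 18103 genes had an adjusted p under 0.05 (0.0166%). One of them was βCA1, at 3611 to 4071 CPM in the triple line and 10940 to 16800 in the double line (log2 fold change −1.94, 95% interval −2.26 to −1.63, adjusted p = 0.000356 by edgeR). The triple line thus carried far less βCA1 transcript than the double line. Its βCA2 was at 1604 to 1883 CPM, against 1155 to 1322 in the double line (log2 fold change 0.50, 95% interval 0.32 to 0.68, adjusted p = 0.123). Without replicate 1 of the triple line that adjusted p for βCA2 was 0.0117, and DESeq2 gave 3.06e-05. None of the 30 genes of the naming rule passed by edgeR, and at an unadjusted p under 0.05 there were 7 of the 15 named for higher values and 8 of the 15 named for lower values, beside 11.3% of all genes. The triple libraries that chose these genes enter this contrast too, so nothing is read from that difference. By DESeq2 8 passed, and without replicate 1 of the triple line 11 passed by edgeR. The share of all genes that passed in these alternative fits is not given here, so nothing is read from these counts either.

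The 5 genes that passed the test with water also passed it with bicarbonate. In these separate libraries, in which 0.977% of 18213 genes had an adjusted p under 0.05, the log2 fold change was 1.49 for PsbS (adjusted p = 0.00558), 3.33 for QQS (adjusted p = 0.00638), −0.86 for ECA4 (adjusted p = 0.0147) and 0.93 for AT1G62250 (adjusted p = 0.0177). AT3G01345 stood at 154.0 to 182.3 CPM in the triple line and 0.0548 to 0.125 in Col-0 (adjusted p = 1.38e-08). AT3G01345 passed without any one library. Without replicate 2 of Col-0 with bicarbonate, the other 4 did not pass (adjusted p of 0.111 for PsbS, 0.111 for QQS, 0.117 for ECA4 and 0.137 for AT1G62250), and ECA4 and AT1G62250 did not pass without replicate 2 (0.0624 and 0.0624) or replicate 3 (0.0534 and 0.0645) of the triple line with bicarbonate. βCA1 had a log2 fold change of 0.04 with bicarbonate (95% interval −0.26 to 0.35, adjusted p = 0.963) and βCA2 one of 0.29 (0.03 to 0.55, adjusted p = 0.447). The difference between the 2 treatments was tested itself, over the 12 libraries, and passed for 0.285% of 18595 genes. It did not pass for any of these 7 genes, with adjusted p of 0.691 for βCA1 and above that for the others. Of the 30 genes, SAG21 alone passed. It stood at 22.96 to 36.8 CPM in the triple line and 8.75 to 21.9 in Col-0 with bicarbonate, where with water the triple line was the lower (difference of log2 fold changes 2.06, adjusted p = 0.0449). That call held with all 12 libraries and without replicate 1 of either group with bicarbonate (adjusted p of 0.0122 without that of Col-0 and 0.00896 without that of the triple line), while leaving out any of the other 10 libraries gave an adjusted p of 0.0613 to 0.18. SAG21 had been chosen for low values in the same triple water libraries. These enter the difference with a minus sign, which favours a positive value, so nothing is read from this pass.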

How the data were processed

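Rosette RNA was sequenced from stranded mRNA libraries (TruSeq, NovaSeq, paired reads). The authors assigned reads to the Ensembl TAIR10 cDNA models with Salmon, whose version is not given in the sources used here. The deposited estimated counts are reads per transcript model, not normalized, and the deposited TPM values are the same assignments per effective length, scaled by Salmon to a fixed total. Each file holds 48268 models of 27588 genes. Gene counts are rounded sums of the estimated counts of the models. Locus tags matched 27390 of the genes to the RefSeq table of TAIR10.1, and the lengths of all 20 models described equal the deposited ones. Read assignment between models of a gene, or between paralogs, can move levels.

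The 6 libraries were tested in edgeR 4.0.16 (R 4.3.3, limma 3.58.1) with TMM, filterByExpr (minimum count 10, minimum total 15) and the quasi-likelihood F test, with Benjamini-Hochberg adjustment over all genes tested. Every adjusted p is from this test unless DESeq2 is named. Calls need an adjusted p under 0.05 together with a fold change over 2 (log2 above 1 or below −1). The common coefficient of biological variation was 0.118. Standard errors come from the F statistic. CPM are scaled by TMM over all 30 libraries. Transcript models were compared by TPM with an exact permutation test. Tables and figures were made in Python 3.11.15 with pandas 2.3.3 and numpy 2.4.6. The method was tested on simulated data.

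The named genes are PsbS, βCA1 and βCA2, 15 genes in each direction (called genes first, then genes of adjusted p under 0.05, then genes without overlap by smallest p), list members of adjusted p under 0.05, the carbonic anhydrases and PP2AA3. Members, lists and rule were chosen with earlier results of these data known. As alternatives, the fit was repeated without each library in turn, with the 15 water or all 30 libraries, with the replicate number as a block, with RLE size factors, with length-scaled TPM counts, without the filter, without organelle genes, in DESeq2 1.42.0, in limma on log2 TPM (pseudocount 1 or 0.1), and with calls by adjusted p only. Replicate numbers were not treated as pairs. Among 435 pairs of libraries 0 were identical.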

Additional observations from a re-analysis of the deposited data

Results flagged for a closer look

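The genotype npq4-1 enters none of the comparisons tested here, and 2 of the genes that passed the test between the triple line and Col-0 were above the Col-0 level in it. AT3G01345 averaged 160 CPM in npq4-1 with water and 189.1 CPM with bicarbonate, against 0.199 and 0.0789 CPM in Col-0. AT1G62250 averaged 45.37 CPM in npq4-1 with water and 48.48 CPM with bicarbonate, against 26.1 and 24.9 CPM in Col-0. The difference was not tested. Groups of 3 are too small for a test of single samples. The root mean square deviation of a library from its group, on the log2 scale, was 0.156 to 0.18 in the triple line and 0.165 to 0.171 in Col-0 with water.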

How the results depend on the processing

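PsbS, AT3G01345 and QQS were called higher under all 16 alternative fits, with log2 fold changes of 1.68 to 1.78, 6.82 to 10.4 and 3.54 to 4.21. No other gene was called higher in these fits except 1 without replicate 3 of the triple line. By an adjusted p alone in the main fit 4 genes were higher, AT1G62250 being added. The number called lower was 0 by edgeR, 11 by DESeq2, 1 with all 30 libraries, 2 without the low-count filter, 4 with the 15 water libraries, 1 by an adjusted p alone and 0 to 4 with a library left out (4 without replicate 1 of the triple line, 1 without replicate 2 of Col-0). ST2A, ORE1 (NAC6) and AT1G09500 were called lower under 3 of these settings each. Of the 15 genes named for lower values 1 passed by adjusted p alone, and 12 by DESeq2, 9 with the 15 water libraries, 5 without the filter, 4 with all 30 libraries and 3 without replicate 1 of the triple line. They had been chosen by p in the same libraries, so nothing is read from these counts. The number of genes at an adjusted p under 0.05 was 56 by DESeq2, 27 with the 15 water libraries, 23 without replicate 1 of the triple line, 14 with all 30 libraries, 11 without the filter, and 3 to 5 otherwise. βCA1 was at 0.30 to 0.39 on the log2 scale and passed in 1 of 17 fits, βCA2 at 0.43 to 0.59 in 5, ECA4 at −0.84 to −0.70 in 10 and AT1G62250 at 0.74 to 0.95 in 9.

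Against the double line 0 named genes passed, 8 by DESeq2, 1 with all 30 libraries and 0 to 11 with a library left out (11 without replicate 1 of the triple line). For the difference between treatments 1 passed, 4 by DESeq2, 3 with all 30 libraries, 0 with the replicate block (SAG21 then had an adjusted p of 0.0738) and 0 to 3 with a library left out. The libraries that chose these genes enter both contrasts. The share of all genes that passed in each of these fits is not given here, so nothing is read from the counts. The causes of the changes between settings were not tested. Libraries of the same replicate number did not deviate together between the triple line and Col-0 (correlations of −0.00749, −0.14 and 0.00805), so the numbers pair nothing that could be seen. With the replicate block the counts were 3 higher and 0 lower, with 4 genes at an adjusted p under 0.05, among which ECA4 (0.0831) and AT1G62250 (0.0613) no longer were and LTP4 (0.0216) was.

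Values near 0 changed sign. ECA1 went to −0.0439 and −0.0405 in limma with pseudocounts of 0.1 and 1, to −0.00136 with the replicate block, and spanned −0.0728 to 0.0582 with libraries left out. With libraries left out, PP2AA3 spanned −0.0505 to 0.0516, AT3G01345 against oePsbS −0.173 to 0.142, QQS against the double line −0.0634 to 0.104, ECA4 against oePsbS −0.0894 to 0.0471 and against the double line −0.108 to 0.0414. The difference between treatments spanned −0.881 to 0.012 for QQS and −0.025 to 0.182 for AT1G62250. With bicarbonate, in alternatives chosen after seeing the data, βCA1 spanned −0.0702 to 0.183. As shares of the reads of a gene rather than TPM, the triple line minus Col-0 was −10.6 percentage points for PsbS.1, −0.357 for βCA1.1 and −10.5 for βCA1.3, because other models of these genes took a larger share. Depth limits genes at a few CPM, such as AT3G23550 and NIMIN1.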

Other observations

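Over all 30 libraries, 7 genes of 18131 set Col-0 apart from the other 4 genotypes under both treatments, and they were chosen after their values were seen. In 5 of them all 24 libraries of the triple, double, oePsbS and npq4-1 plants lay above all 6 of Col-0: AT3G01345, AT1G62250, AT2G30930, KCS8 and CRK40, the last a cysteine-rich receptor-like kinase gene at 82.7 to 110.4 CPM, against 62.2 to 79.6 in Col-0. In the other 2 they lay below: AT1G62290, at 2.71 to 8.34 CPM, against 12.7 to 15.6 in Col-0, and AT4G36270, at 0.875 to 2.59 CPM, against 3.45 to 5.0 in Col-0. AT1G62250 and AT1G62290 lie 12175 bases apart on chromosome 1 and go in opposite directions. For 3 genes all libraries of the 3 overexpressing genotypes stood apart from all libraries of npq4-1 and Col-0. PsbS was at 3324 to 5592 CPM, against 0.12 to 1895, and QQS at 37.9 to 64.4 CPM, against 1.70 to 8.75. ECA4 was at 22.9 to 28.4 CPM, against 42.5 to 48.5. No test was run on these sortings, and what sets Col-0 apart was not tested.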
